A study of Mus musculus with 32 samples.

Results

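The genes described here are those of glycolysis, of lactate and pyruvate handling at the end of that pathway, and of the response to low oxygen. The list held 40 symbols. A symbol was matched to the probe sets that the array's platform annotation gives exactly 1 gene, and where a gene had several, the one brightest on average across the 32 arrays stood for it. All 16 groups of arrays were read. By this rule 37 of the 40 were measured, of 18194 genes on the array. Gpi1 was not matched, Bnip3l was listed only with other symbols, and Ero1l stands in the annotation under its current symbol Ero1a, so these are not among the 37.

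The study followed mouse cells from pluripotency towards the germ line. In this system embryonic stem cells (ESCs) are turned into epiblast-like cells (EpiLCs), which resemble the epiblast of the early embryo. EpiLCs then form cells like primordial germ cells (PGCs), called PGCLCs, either with cytokines (Ck-PGCLCs) or by switching on transcription factors without those cytokines. Each of 32 cDNA samples, amplified from about 20000 cells, was read on its own Affymetrix array, with 2 arrays in each group.

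The newly submitted arrays (22, in 11 groups) came from male cells of mixed C57BL/6 and 129 background that carried the reporters Blimp1-mVenus and stella-ECFP and the doxycycline-controlled activator rtTA at Rosa26. The parental clone, with no added factor, gave EpiLCs harvested after 36 h, Ck-PGCLCs on days 2 and 4, and a negative control cultured with doxycycline for 2 days. Ck-PGCLCs were induced in aggregates of 2000 cells with BMP4 and BMP8A (500 ng/ml each), SCF (100 ng/ml), EGF (50 ng/ml) and LIF (1000 U/ml). Factor cells also carried tetO-driven piggyBac transgenes and received doxycycline (1.5 μg/ml), likewise in aggregates of 2000 cells. No aggregate size is listed for the EpiLCs, the parental control or the BP14A ESCs, and the part of aggregation was not tested. BP14A cells had Avi-Blimp1, 3xFLAG-Prdm14 and V5-Tfap2c, BP14 cells lacked Tfap2c, P14A cells lacked Blimp1, and P14 cells had Prdm14 alone. Factor cells were taken on day 2, and BP14A cells also on day 4. BP14A ESCs kept in 2i and LIF, and BP14A ESCs given doxycycline for 2 days and sorted for stella-ECFP, completed this set. The factor cells and the parental clone are different clones, so clone and factor cannot be told apart. The earlier arrays (10, in 5 groups) were of C57BL/6 origin. They held male ESCs, male EpiLCs at 48 h and male Ck-PGCLCs on day 6, all with Blimp1-mVenus and stella-ECFP, epiblast at E5.5 without a transgene, and PGCs at E9.5 with stella-EGFP. The sex of the epiblast and of the PGCs is labelled unknown. No comparison sets a new array against an earlier one, except in a test of the difference between their EpiLC steps. Ranges and ranks over all 16 groups do span both sets, and between the sets group and set of arrays cannot be told apart. The 2 arrays of a group are described as biological duplicates, but separate cultures are named in no label. The p-values therefore reflect only how far such arrays differ, which may be partly technical.

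Glycolysis splits glucose into pyruvate in the cytosol. Lactate dehydrogenase can turn pyruvate into lactate, which leaves or enters the cell through monocarboxylate transporters. Pyruvate dehydrogenase kinases inhibit pyruvate dehydrogenase, the enzyme that breaks down pyruvate inside the mitochondria. In low oxygen the factor HIF1A escapes degradation, pairs with ARNT and binds DNA, often at the core ACGTG, and many glycolytic genes are among its known targets. Pluripotent cells in the primed state are known for strong glycolysis and naive cells for a greater use of respiration.

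Levels are log2 values after quantile normalization, so that 1 unit is a 2-fold difference. A change is the difference of 2 group means on that scale, with its standard error (SE). A gene is said to have risen or fallen where the limma model fitted over 15498 genes gave a Benjamini-Hochberg adjusted p under 0.05 and the change was at least 2-fold. All 37 members passed the filter on dim genes, which asked for a mean of at least log2 4.05 in 1 group. Probe sets bind with different strengths, so levels are compared between groups and never between genes.

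Promoters are shown for 4 members on which the results turn, because their changes in the cytokine and factor cells recur below and their windows differ in whether they hold the ACGTG core. The RefSeq table of assembly GRCm38.p6 held a promoter for 35 of the 37 members, and Slc2a3 and Ndrg1 had no entry. Each window runs 5′ to 3′ from 250 bases before to 50 bases after the start of transcription. Capitals mark ACGTG on either strand (CACGT on the printed strand), and a CACGTG holds it on both strands. Ldha (chr7:46845554-46845853, plus strand, the first of its listed starts) and Slc16a3 (chr11:120948817-120949116, plus strand) hold the core. Pdk1 (chr2:71872974-71873273, plus strand, the first of its listed starts) and Pfkp (chr13:6648722-6649021, minus strand) do not hold it.
Ldha: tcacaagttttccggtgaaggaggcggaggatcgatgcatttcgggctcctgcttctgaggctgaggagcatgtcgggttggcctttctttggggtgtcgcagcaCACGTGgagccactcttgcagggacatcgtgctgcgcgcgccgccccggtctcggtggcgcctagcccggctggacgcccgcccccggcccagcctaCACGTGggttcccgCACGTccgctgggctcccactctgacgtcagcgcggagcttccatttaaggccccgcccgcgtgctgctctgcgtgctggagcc
Slc16a3: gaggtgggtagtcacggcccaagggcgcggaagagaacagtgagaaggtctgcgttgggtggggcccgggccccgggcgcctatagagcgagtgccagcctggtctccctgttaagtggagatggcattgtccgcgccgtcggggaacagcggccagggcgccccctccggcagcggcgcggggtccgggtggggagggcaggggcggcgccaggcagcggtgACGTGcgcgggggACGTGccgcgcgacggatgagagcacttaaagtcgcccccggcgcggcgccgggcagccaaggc
Pdk1: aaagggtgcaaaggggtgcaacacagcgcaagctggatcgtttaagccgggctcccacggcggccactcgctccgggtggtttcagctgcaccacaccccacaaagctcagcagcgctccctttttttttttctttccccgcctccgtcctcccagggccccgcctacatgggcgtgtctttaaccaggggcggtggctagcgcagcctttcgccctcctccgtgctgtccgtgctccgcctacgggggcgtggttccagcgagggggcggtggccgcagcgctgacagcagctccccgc
Pfkp: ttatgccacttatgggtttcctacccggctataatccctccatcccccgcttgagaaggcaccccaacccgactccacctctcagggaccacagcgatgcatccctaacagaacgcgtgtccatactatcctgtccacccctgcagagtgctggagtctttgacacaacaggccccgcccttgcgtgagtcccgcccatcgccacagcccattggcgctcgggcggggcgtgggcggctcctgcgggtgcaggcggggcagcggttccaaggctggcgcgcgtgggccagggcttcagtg
ACGTG on either strand stood in a window of 26 of the 35 members and CACGTG, which contains it, in 7 of them. Over all genes in the table, 21.8% of 27025 held ACGTG and 8.09% held CACGTG in a window of the same length. A match is a description of the letters and not a binding site, and a window without a match says only that these letters are not in it. The printed windows do not stand for the other members. In Ck-PGCLCs on day 4 against EpiLCs, Ldha, Slc16a3 and Hk2 hold ACGTG and fell, while Hk1 and P4ha1 hold it and rose. Pfkl, Tpi1 and Eno3 do not hold it and fell, while Pfkp does not hold it and rose. A link between the core and the direction of change was not tested.

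Across the 16 group means, which span both sets of arrays, the members ranged from nearly flat to widely spread. Slc16a3, the monocarboxylate transporter known for lactate export, spanned 7.30 log2 units, from 3.68 in Ck-PGCLCs on day 6, below the filter, to 10.98 in EpiLCs at 36 h. Bnip3, a mitophagy receptor, spanned 5.03, and Pfkfb3, which makes the phosphofructokinase activator fructose 2,6-bisphosphate, ran from 3.86 in ESCs, also below it, to 8.86 in Ck-PGCLCs on day 6. Next came the phosphofructokinase Pfkl with 4.48, lactate dehydrogenase A (Ldha) with 4.34 and the phosphofructokinase Pfkp with 4.19. At the other end, Gapdh spanned 0.246, the kinase Pdk2 0.362, the pyruvate kinase gene Pkm 0.544, Pgam1 0.675 and Hif1a, the oxygen-regulated factor itself, 0.799. Of 37 members, 27 rose or fell in at least 1 of 24 comparisons and 10 in none, namely Aldoa, Car9, Gapdh, Hif1a, Pdk2, Pdk3, Pdk4, Pgam1, Pgk1 and Pkm. The means of 4 members lay above 12.54, the 99th percentile of all values, of which the highest was 13.86. Eno2 and Pdk4 were dim, with means above the filter in 2 groups each.

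**Figure D1:**
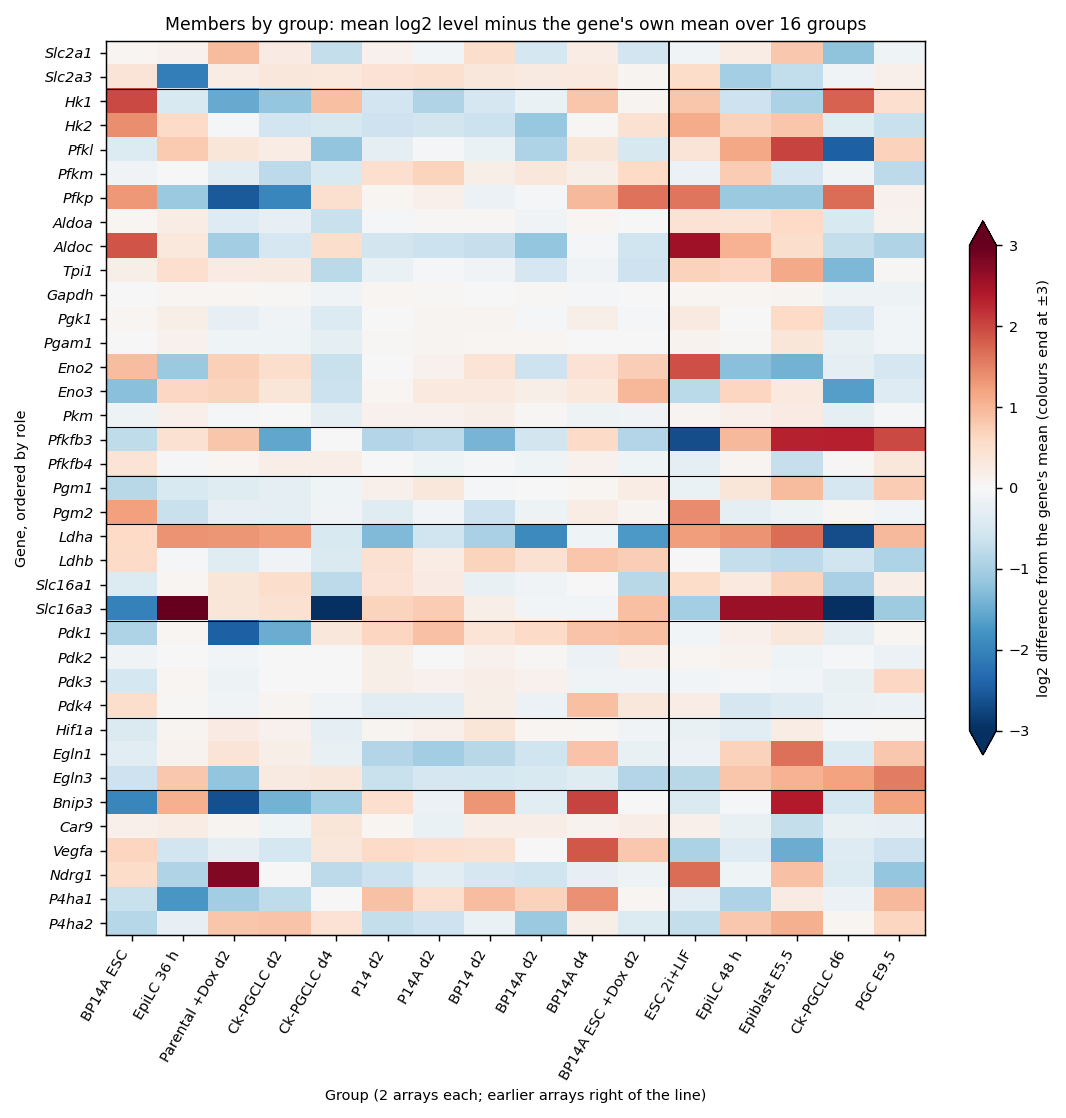
Heat map of the 37 members (rows, ordered by role) in the 16 groups (columns), coloured by the group mean minus the gene's mean over all groups, in log2 units. Slc16a3, Ldha, Pfkl and Tpi1 are lowest in Ck-PGCLCs on day 6, where Pfkp and Hk1 are high, and Gapdh, Pkm and Pgam1 stay close to 0 throughout.

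Some calls rest on the choice of probe set. Pfkp was called in 17 of the changes examined, and all 17 calls ended when all probe sets of a gene were averaged in place of the brightest. The brightest Pfkp probe set has a mean level of 10.06 and the other 2 have 4.55 and 3.25. In Ck-PGCLCs on day 6 against EpiLCs at 48 h the brightest changed by 2.78, and the others by -2.56 and 0.56. P4ha1, a collagen prolyl hydroxylase subunit, lost 8 of 10 named calls in the same way through a second probe set with a mean of 4.27. Slc2a3 lost 3 of 7. Its brightest 2 probe sets changed by -2.46 and -2.63 in EpiLCs at 36 h, and its dim ones by -1.24 and 2.89. Ldha, Slc16a3 and Bnip3 each have a single probe set.

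The labels were set against markers of cell types. A marker sum is the log2 of the markers' unlogged levels added up on an array, so the brightest probe sets weigh most in it. The summed level of 6 germ cell markers (Prdm1, Prdm14, Tfap2c, Dppa3, Kit and Dnd1) lay between 13.53 and 13.88 in the factor cells, between 14.14 and 14.58 in Ck-PGCLCs on days 4 and 6 and in PGCs, and between 9.06 and 9.53 in EpiLCs at 36 h and the parental clone with doxycycline, where Prdm14 was below the filter. Prdm1 (Blimp1), Prdm14 and Tfap2c are also the transgenes, whose part in the factor cells' sums was not tested. Ck-PGCLCs on day 2 lay between these, at 11.53 to 11.70. The 6 markers of naive ESCs summed to 13.71 to 13.93 in both ESC groups. The 4 markers of primed epiblast summed to 13.55 to 14.11 in EpiLCs and epiblast. RNA quality was read from Gapdh, as the 5′ minus the 3′ control probe set. That difference was lowest on both arrays of BP14A cells on day 4 (-4.66 and -2.99), on array 1 of BP14 cells (-4.07) and of EpiLCs at 36 h (-3.03), and on array 2 of BP14A ESCs with doxycycline (-3.13). Replicate arrays correlated at 0.966 to 0.986. Of 480 pairs of arrays from different groups, 2 correlated above the highest of these, array 2 of BP14 with array 2 of P14 (0.988) and of P14A (0.987).

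The step from ESCs to EpiLCs was measured in both sets of arrays. Slc16a3 rose 34.7-fold in EpiLCs at 36 h, while Slc2a3, a high-affinity glucose transporter (GLUT3), and Hk1, a hexokinase that traps glucose in the cell, each fell more than 5-fold. Ldha differed by 0.76 between the group means and was not called (adjusted p = 0.1). Of 37 members, 5 rose and 6 fell, with 14.6% of all genes called (7.17% higher and 7.45% lower), and the median member change was 0.11 against 0.05 for all genes. Without array 2 of the ESCs 7 were called in all.

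Slc16a3 read 6.28 and 5.45 in BP14A ESCs and 10.79 and 11.18 in EpiLCs at 36 h, a change of 5.12 (SE 0.49, adjusted p = 1.74e-07 by limma). Slc2a3 read 13.05 and 13.01 in the ESCs and 10.63 and 10.50 in the EpiLCs, a change of -2.46 (SE 0.16, adjusted p = 8.22e-10). Hk1 went from 11.09 and 11.12 to 8.82 and 8.52, a change of -2.43 (SE 0.31, adjusted p = 6.15e-06). None of these groups overlapped. Eno3, an enolase best known from muscle, rose by 1.89, and Pgm2, a phosphoglucomutase paralogue, fell by 1.90. Pfkp fell by 2.41, within the limit given above. The rise of Bnip3 by 3.03 rested on single arrays, since it was 2.00 (adjusted p = 0.18) without array 1 of the EpiLCs and 2.45 (adjusted p = 0.12) without array 2 of the ESCs. The ESCs here were the BP14A clone and the EpiLCs the parental clone, so clone and stage cannot be told apart.

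The earlier arrays, with ESCs and EpiLCs of the same reporter make-up, gave 5 members that rose and 6 that fell, with 14.4% of all genes called (7.26% higher and 7.09% lower). Slc16a3 went from 7.41 and 6.34 to 10.71 and 10.25, a change of 3.60 (SE 0.49, adjusted p = 1.68e-05). Pfkfb3 went from 3.27 and 4.45 to 7.79 and 7.18, a fitted change of 3.63 (SE 0.42, adjusted p = 2.07e-06). Its ESC mean of 3.86 was below the filter, and with ESC arrays under the filter set to that level it was at least 9.43-fold higher in EpiLCs. Both EpiLC arrays lay above both ESC arrays for each gene. Hk1 fell by 1.45 (not called with the earlier arrays alone, adjusted p = 0.0701), Slc2a3 by 1.56, Pgm2 by 1.71 and Pfkp by 2.70, and Eno3 rose by 1.47. The numbers of the earlier arrays pair them. A replicate block was fitted for both sets in the same model, also for the new arrays, whose numbers do not pair them. With that block Aldoc, an aldolase best known from brain, also fell (-1.50, adjusted p 0.081 without and 0.00916 with the block). In a test of the difference between the new and the earlier EpiLC step, 0 of 37 members were called with 0.916% of all genes called (0.355% higher and 0.561% lower), and 2 higher and 5 lower had an unadjusted p under 0.05 in limma. Over all genes these shares were 5.79% and 5.63%. Pfkfb3 had the smallest p (-2.42, adjusted p = 0.0579) and Bnip3 the largest difference (2.66, adjusted p = 0.391). The earlier Pfkfb3 step starts from an ESC level below the filter. With ESC arrays under the filter set to that level it was 3.24, against 1.21 for the new step.

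Epiblast at E5.5, the tissue that EpiLCs stand for, was set against the same ESCs. There 9 members rose and 6 fell, with 17% of all genes called (7.58% higher and 9.43% lower). Slc16a3 read 10.84 and 10.16 in epiblast, a change of 3.62 (SE 0.49, adjusted p = 1.07e-05), and Pfkfb3 read 8.87 and 8.78, at least 23.8-fold higher than in the ESCs on the same terms (adjusted p = 2.28e-08). Egln3, a prolyl hydroxylase that marks HIF proteins for degradation, rose by 1.86, and Hk1 fell by 1.77. These ESC arrays also serve the comparison of EpiLCs, so the values stand side by side and no overlap is counted. EpiLCs at 48 h against epiblast gave 3 members, with 4.74% of all genes called (3.29% higher and 1.45% lower). Pfkm rose by 1.28 and P4ha1 and Pfkfb3 fell by 1.17 and 1.33, and each call ended when single arrays were left out. For Pfkm the value was 0.90 (adjusted p = 0.0563) without array 2 of the epiblast, and for P4ha1 it was -0.84 (adjusted p = 0.18) without array 2 of the EpiLCs. Pfkfb3, with an adjusted p of 0.0499, lost its call without any 1 of the 4 arrays (-1.64 to -1.03).

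After EpiLCs were cultured on to day 2, Slc2a3 was higher again with and without cytokines. It read 12.93 and 12.80 in the parental clone with doxycycline and 13.07 and 12.91 in Ck-PGCLCs on day 2, against 10.63 and 10.50 in the EpiLCs they came from. The changes were 2.30 (SE 0.16, adjusted p = 3.43e-09) and 2.42 (SE 0.16, adjusted p = 1.5e-09). All arrays of day 2 lay above both EpiLC arrays. Slc16a3 fell by 2.73 in the parental clone and by 2.62 with cytokines.

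In the parental clone with doxycycline, 2 members rose and 6 fell, with 12.9% of all genes called (7.23% higher and 5.63% lower). Pdk1, the pyruvate dehydrogenase kinase most tied to low oxygen, read 10.88 and 10.50 in EpiLCs and 8.23 and 8.14 in this control, a change of -2.51 (SE 0.35, adjusted p = 2.42e-05). Ndrg1, a stress-response gene raised by low oxygen in many cells, read 5.44 and 4.88 in EpiLCs and 8.64 and 9.04 in the control, a change of 3.68 (SE 0.50, adjusted p = 1.93e-05). Among group means the control held the lowest Pdk1 and the highest Ndrg1 of the 11 groups of new arrays, and also of all 16 groups. Egln3 fell by 2.00. Bnip3 fell by 3.72, a call that ended without array 1 of the EpiLCs (-2.69, adjusted p = 0.0667). Markers of mesoderm and streak (4 of 4 measured above the filter: Mixl1, Hoxb1, Mesp1 and Eomes) summed to 11.90 to 11.95 in the control, against 7.39 to 7.75 in EpiLCs (Hoxb1 below the filter). Markers of endoderm (5 of 5) summed to 10.22 to 10.73 against 7.02 to 7.33 (Foxa2 below the filter). Their part in these changes was not tested. In bulk samples fewer cells of a type and less RNA per cell cannot be told apart.

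With cytokines for 2 days, 1 member rose and 5 fell against EpiLCs, with 14.5% of all genes called (8.43% higher and 6.06% lower). On the deposited values 3 rose and 3 fell, and with median centring 3 rose and 4 fell. Pfkfb3 fell by 2.02, a call kept under each alternative. Pdk1 fell by 1.56, which was -0.91 with all probe sets averaged, while the fall of Bnip3 by 2.49 passed under quantile normalization only (adjusted p = 0.0572 on the deposited values and 0.0503 with median centring) and ended without array 1 of the EpiLCs (-1.46) and without either Ck-PGCLC array (-2.25 and -2.73). Against the parental control of the same day, 3 members were called with 3.72% of all genes called (2.32% higher and 1.41% lower). Ndrg1 fell by 2.79 and Pfkfb3 by 2.40, and Egln3 rose by 1.45 (not called with all probe sets averaged, adjusted p = 0.105). The control received doxycycline, and none is listed for the Ck-PGCLCs, so cytokines and doxycycline cannot be told apart in that comparison. The EpiLC and the control arrays are shared among these comparisons.

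Between days 2 and 4 of the cytokine route, Ldha and the lactate transporter genes Slc16a1 and Slc16a3 fell. The hexokinase Hk1, the kinase Pdk1 and, on its brightest probe set, the phosphofructokinase Pfkp rose. Of 37 members, 4 rose and 6 fell, with 12.5% of all genes called (5.68% higher and 6.84% lower). The median member change was -0.13, against 0.02 over all genes.

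Slc16a3 read 8.36 and 8.37 on day 2 and 4.50 and 5.08 on day 4, a change of -3.58 (SE 0.49, adjusted p = 2.15e-05). Ldha read 13.00 and 12.99 on day 2 and 11.30 and 11.28 on day 4, a change of -1.71 (SE 0.33, adjusted p = 0.000638). Pdk1 read 9.06 and 9.21 on day 2 and 11.01 and 10.95 on day 4, a change of 1.84 (SE 0.35, adjusted p = 0.000619). For all 3 genes the days did not overlap and lay further apart than the replicates did. Hk1 rose by 2.06 (SE 0.31, adjusted p = 6.02e-05), from 7.89 and 8.05 to 9.98 and 10.07. Pfkp rose by 2.45, from 8.07 and 8.12 to 10.46 and 10.63, but by 0.38 and not called with all probe sets averaged. Slc16a1, the more widely expressed monocarboxylate transporter, fell by 1.30, and its call ended with all probe sets averaged (-1.07, adjusted p = 0.0821). Tpi1, the triose phosphate isomerase, fell by 1.08 and missed 2-fold without array 1 of day 4 (-0.99). The fall of Pfkl by 1.40 lost its call without any 1 of the 4 arrays (-1.55 to -1.25, adjusted p 0.0801 to 0.168) and with all probe sets averaged (-0.58). Pfkfb3 rose by 1.57, a call that ended without array 2 of day 2 (1.34) and without array 1 of day 4 (1.51). The mesoderm and streak sum went from 11.54 to 11.93 on day 2 to 7.29 to 7.41 on day 4 (Mixl1 and Hoxb1 below the filter), and the germ cell sum from 11.53 to 11.70 on day 2 to 14.14 to 14.15 on day 4. Their part in this step was not tested.

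Against EpiLCs, Ck-PGCLCs on day 4 had 4 members higher and 6 lower, with 16.4% of all genes called (8.99% higher and 7.4% lower). The falls of Ldha by 1.81, Pfkl by 1.97, Tpi1 by 1.32 and Eno3 by 1.27 held under each alternative run, as did the rise of Slc2a3 by 2.40. Hk1 rose by 1.35 and P4ha1 by 1.77, and both calls ended with all probe sets averaged (1.33 with adjusted p = 0.0506, and 0.57).

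**Figure D2:**
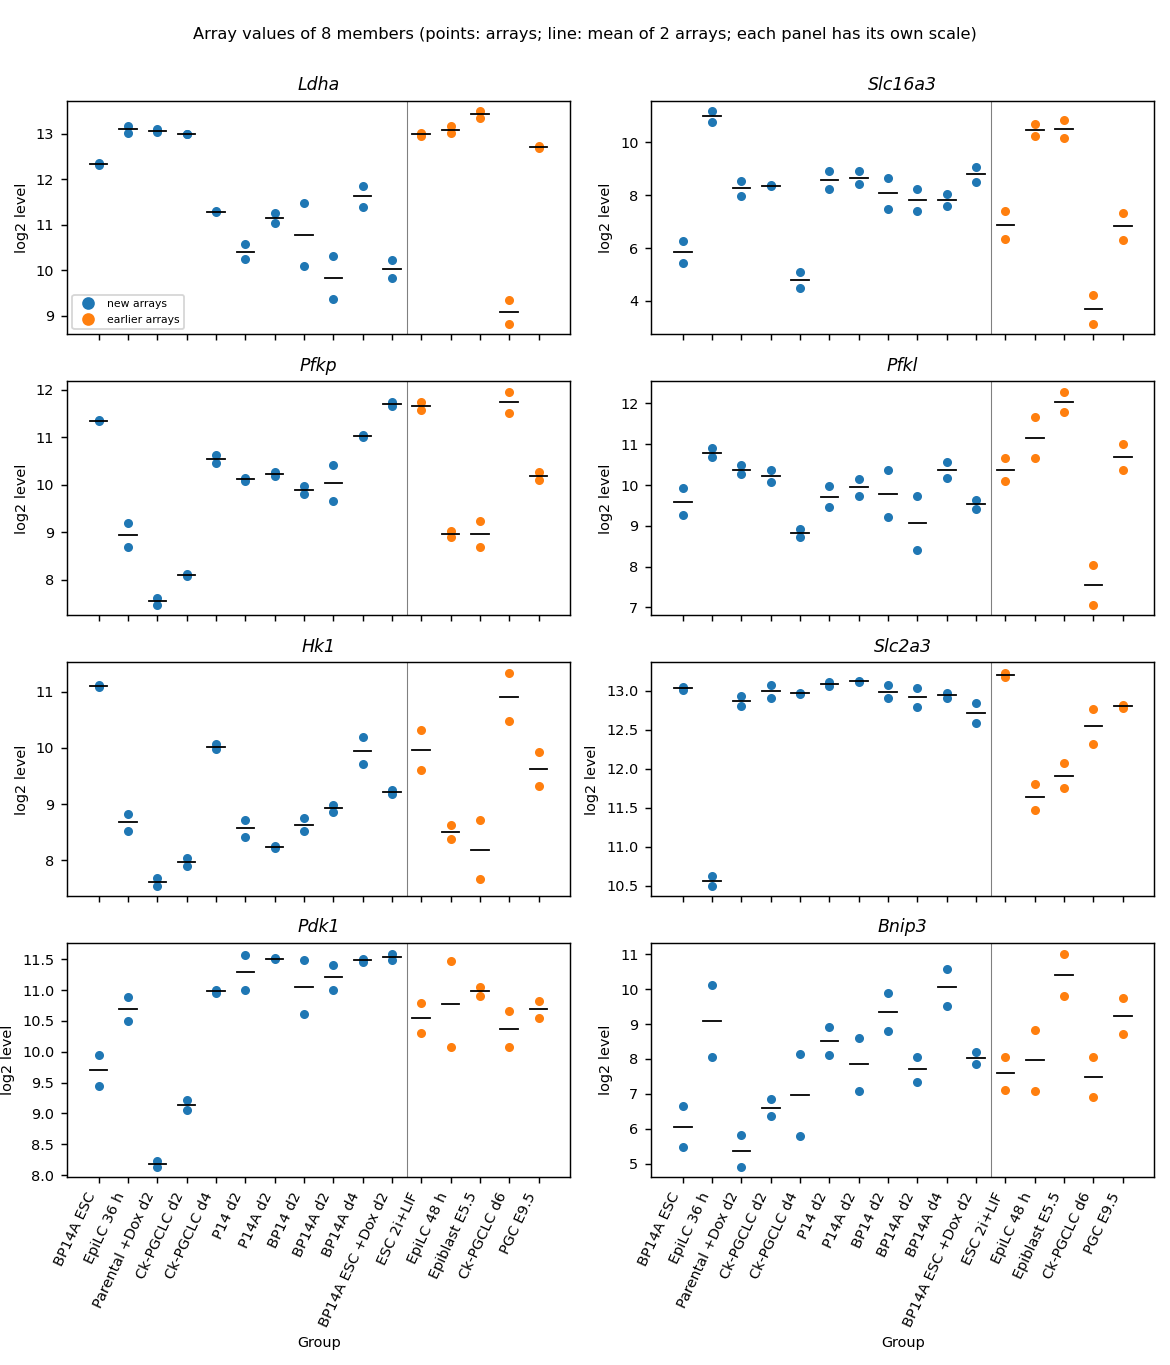
Levels of 8 members (log2, vertical axis) on each of the 32 arrays, with a point for an array, a line for the mean of the 2 arrays, the 16 groups along the horizontal axis, new arrays in blue and earlier arrays in orange. Ldha is lower in the factor cells, in Ck-PGCLCs on days 4 and 6 and in BP14A ESCs with doxycycline than on any array of the other groups, and Pdk1 is lowest in the parental clone with doxycycline.

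The factor cells received no cytokines. On day 2, each of the 4 factor sets had Ldha far below the parental control, while with cytokines Ldha differed from that control by -0.08 (95% interval -0.76 to 0.60). Pdk1 and Pfkp were higher than in the control in all 4 sets, and Ndrg1 lower. All 4 comparisons share the control arrays, so their values are given side by side. The members called numbered 11 for BP14A, 9 for BP14, 10 for P14A and 8 for P14, of which 4, 6, 4 and 4 rose. Of all genes, 13.9% were called with BP14A (6.63% higher and 7.25% lower), 12.8% were called with BP14 (6.39% higher and 6.43% lower), 12.5% were called with P14A (5.65% higher and 6.81% lower) and 12.9% with P14 (6.34% higher and 6.6% lower). The median member changes were 0.05, 0.12, 0.18 and 0.15, against 0.05, 0.05, 0.04 and 0.03 over all genes.

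Ldha read 13.05 and 13.10 in the control, 9.37 and 10.31 with BP14A, 10.09 and 11.47 with BP14, 11.04 and 11.26 with P14A, and 10.24 and 10.57 with P14. The changes were -3.24 (SE 0.33, adjusted p = 3e-07) with BP14A, -2.29 (adjusted p = 2.83e-05) with BP14, -1.92 (adjusted p = 0.000177) with P14A and -2.66 (adjusted p = 4.2e-06) with P14. Every factor array lay below both control arrays, and of these replicate pairs the BP14 arrays differed most. Pdk1 read 8.23 and 8.14 in the control and between 10.62 and 11.58 on the 8 factor arrays. It rose by 3.02, 2.86, 3.32 and 3.10 in BP14A, BP14, P14A and P14 (SE 0.35 each, highest adjusted p = 5.03e-06). Pdk1 in EpiLCs, at 10.88 and 10.50, was also above the control, so the control arrays lay below all of these. Ndrg1 read 8.64 and 9.04 in the control and between 4.64 and 6.33 on the factor arrays, and fell by 3.11 to 3.42 (highest adjusted p = 0.000116). EpiLCs, at 5.44 and 4.88, lay within the range of the factor arrays.

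Pfkp read 7.47 and 7.62 in the control and between 9.66 and 10.41 on the factor arrays, with rises of 2.35 to 2.68. All 4 of these Pfkp calls ended with all probe sets averaged. P4ha1 rose by 1.54 to 1.98 in the 4 sets, while its second, dimmer probe set changed by -0.12 to 0.28. With all probe sets averaged P4ha1 rose by 0.81 with BP14A and was not called. P4ha2, another collagen prolyl hydroxylase subunit, fell by 1.94 with BP14A, 1.46 with P14A and 1.54 with P14, and its -1.03 with BP14 was not called (adjusted p = 0.0985). The P4ha2 call ended without array 1 of BP14A (-1.44), without any 1 of the 4 arrays for P14A (-1.60 to -1.33), and without array 1 of P14 (-1.26) or either control array (-1.61 and -1.48) for P14. Bnip3 rose by 3.98 (SE 0.83, adjusted p = 0.00152) with BP14, and by 3.14 with P14 and 2.48 with P14A. The P14 call ended without array 2 of P14 (2.74, adjusted p = 0.0823) and without array 1 of the control (2.69, adjusted p = 0.0953). That of P14A ended without its array 2 (1.71) and without either control array (2.02 and 2.93). With BP14A its change of 2.33 was not called. Slc2a1, the widely expressed glucose transporter GLUT1, fell by 1.48 (SE 0.21, adjusted p = 2.04e-05) with BP14A and by 1.04 with P14A. Pfkfb3 fell by 1.39 to 2.23 in the 4 sets, and only with BP14 did that call hold under each alternative. With all probe sets averaged it ended in the other 3 sets (-0.79 with BP14A and -0.88 with P14A and P14). With BP14A it ended also without array 1 of BP14A (-1.18) and without either control array (-1.43 and -1.35), and with P14A without array 2 of the control (-1.57, adjusted p = 0.0516). Slc16a3 was called in 0 of the 4 sets, with differences from -0.45 to 0.41 (limma adjusted p 0.599 to 0.847, and 0 sets with an unadjusted p under 0.05). Ldhb, the subunit that favours the use of lactate, rose by 1.03 with BP14, a call lost without array 1 of BP14 (0.87), without array 1 of the control (0.87), with the RNA quality covariate (0.95) and with all probe sets averaged (0.98). In the other sets it differed by 0.59 to 0.82 and was not called.

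**Figure D3:**
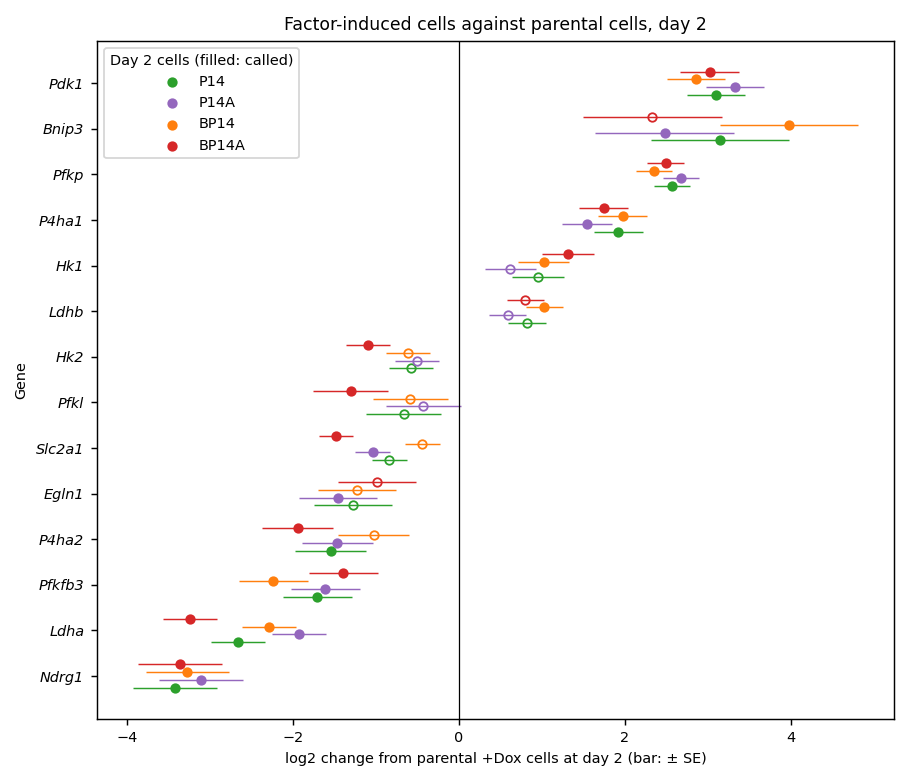
Change from the parental clone with doxycycline (log2, horizontal axis, bars are SE) of each member called in at least 1 factor set, for BP14A, BP14, P14A and P14 cells on day 2, with filled points for called changes. Ldha and Ndrg1 lie left of 0 and Pdk1, Pfkp and P4ha1 right of 0 in all 4 sets.

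Marker sums moved with these groups too. The 4 mesoderm and streak markers summed to 6.74 to 7.60 on the factor arrays of day 2 (Mixl1 and Hoxb1 below the filter), against 11.90 to 11.95 in the control. The 5 endoderm markers summed to 6.70 to 7.11, with 3 or 4 of 5 above the filter, against 10.22 to 10.73. The 6 naive ESC markers summed to 12.65 to 12.79 on the factor arrays and 7.92 to 8.40 in the control (Klf4 below the filter in all of these), and the 4 primed epiblast markers to 9.83 to 12.34 against 12.93 to 13.14. The part of these sums in the changes from the control was not tested.

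BP14A cells on day 2 were also set against the EpiLCs. In EpiLCs the mesoderm and streak sum was 7.39 to 7.75, the endoderm sum 7.02 to 7.33, the naive sum 10.35 to 10.50 and the primed sum 13.55 to 13.88. In these BP14A cells the naive sum was 12.78 to 12.79 and the primed sum 9.83 to 9.92, and the part of the sums was not tested. There, 3 members rose and 6 fell, with 11.6% of all genes called (6.25% higher and 5.36% lower). Ldha was lower by 3.26, Hk2, the inducible hexokinase, fell by 1.71 and Slc16a3 by 3.17. Without array 1 of BP14A cells 5 members were called. P4ha1 rose by 2.46, but by 0.89 and not called with all probe sets averaged. On day 4, BP14A cells had risen in 5 members and fallen in 3 against EpiLCs, with 14% of all genes called (8.12% higher and 5.9% lower). P4ha1 was higher by 3.13 (SE 0.30), and Ldha and Slc16a3 were lower by 1.47 and 3.16. Vegfa, the vascular growth factor, read 3.46 and 4.75 in EpiLCs and 6.47 and 6.62 on day 4. It rose by 2.44 (adjusted p = 0.0133) and lost the call without either day 4 array (2.52 and 2.36) and without array 1 of the EpiLCs (1.79).

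Set directly against Ck-PGCLCs on day 2, BP14A cells had 4 members higher and 2 lower, with 12.6% of all genes called (5.55% higher and 7.01% lower). Ldha, at 13.00 and 12.99 with cytokines, was lower by 3.16 (SE 0.33, adjusted p = 5.17e-07), and Pdk1, at 9.06 and 9.21 with cytokines, was higher by 2.07 (SE 0.35, adjusted p = 0.000181). Pfkp was higher by 1.94 and P4ha1 by 1.47, but by 0.29 and 0.49 with all probe sets averaged, where neither was called. P4ha2 was lower by 1.97 (not called without array 1 of BP14A, -1.47). The mesoderm and streak sum was 11.54 to 11.93 in these Ck-PGCLCs, near that of the control, and their germ cell sum was below that of the factor cells. The part of either in this difference was not tested.

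On day 4, BP14A cells had 5 members higher and 0 lower than Ck-PGCLCs on day 4, with 6.12% of all genes called (3.39% higher and 2.74% lower), and 16 higher and 1 lower at an unadjusted p under 0.05 in limma (12.6% and 11.6% of all genes). The median member difference was 0.53, against 0.01 over all genes. Slc16a3 read 8.04 and 7.61 in BP14A cells and 4.50 and 5.08 in Ck-PGCLCs, a difference of 3.03 (SE 0.49, adjusted p = 0.000453). Ldhb read 12.97 and 12.95 against 11.65 and 11.75, a difference of 1.26 (SE 0.22, adjusted p = 0.00101). Neither gene's arrays overlapped between the groups. Ldha differed by 0.34 (95% interval -0.35 to 1.02), so no difference was detected at this spread. The differences of Bnip3 (3.09), Pfkl (1.55) and P4ha1 (1.36) were less firm. Without array 1 of the Ck-PGCLCs they were 1.92, 1.45 and 1.22, none of them called, and 2 members were called in all. The call of Pfkl ended without any 1 of the 4 arrays (1.35 to 1.75). The neural markers Sox1 and Pax6 summed to 7.64 to 7.80 in BP14A cells and 4.85 to 5.31 in Ck-PGCLCs (Sox1 below the filter), and their part was not tested. RNA quality differed here, with Gapdh 5′ minus 3′ at -4.66 and -2.99 in BP14A cells and -0.47 and -1.62 in Ck-PGCLCs. With that difference as a covariate, an alternative chosen after the data were seen, Bnip3 (2.10, adjusted p = 0.232) and P4ha1 (0.93, adjusted p = 0.0927) lost their calls, and Slc16a3 and Ldhb did not.

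Within BP14A cells, 2 members rose and 0 fell from day 2 to day 4, with 1.43% of all genes called (0.936% higher and 0.49% lower), and 14 were higher and 0 lower at an unadjusted p under 0.05 in limma (7.1% and 7.44% of all genes). Ldha went from 9.37 and 10.31 to 11.86 and 11.39, a change of 1.79 (SE 0.33, adjusted p = 0.00747). It lost the call without array 1 of day 2 (1.32, adjusted p = 0.0918) and without array 1 of day 4 (1.55, adjusted p = 0.104). Hk2 rose by 1.18 and lost its call without any 1 of the 4 arrays (1.03 to 1.32). RNA quality differed between the days, with Gapdh 5′ minus 3′ at -1.03 and -0.58 on day 2 and -4.66 and -2.99 on day 4. With that difference as a covariate Hk2 also lost its call (1.18, adjusted p = 0.102 in limma). The part of RNA quality was not tested beyond this covariate. With any 1 array left out, 0 or 1 member was called. The median member change was 0.34, against 0.00 over all genes.

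The difference between the 2 steps was tested itself, as the change from day 2 to day 4 in BP14A cells minus that in Ck-PGCLCs. Of 37 members, 7 were higher and 2 lower, with 11.8% of all genes called (6.92% higher and 4.92% lower). Slc16a3 fell by 3.58 with cytokines and its step with factors was 0.01, a difference of 3.59 (SE 0.70, adjusted p = 0.0013). Ldha fell by 1.71 with cytokines and rose by 1.79 with factors, a difference of 3.49 (SE 0.46, adjusted p = 3.09e-05). For Slc2a1 the steps were -0.96 and 0.75, a difference of 1.71 (SE 0.29, adjusted p = 0.000424), and for Tpi1 they were -1.08 and 0.40, a difference of 1.48 (adjusted p = 4.67e-05). These 4 differences held under each alternative run. Pfkl (2.69, not called with all probe sets averaged), Slc16a1 (1.43, likewise) and Eno3 (1.15) differed the same way. Pfkp (-1.45, but -0.19 and not called with all probe sets averaged) and Pdk1 (-1.57) differed the other way. The call of Pdk1 ended without either array of BP14A cells on day 4 (-1.59 and -1.55), either array of Ck-PGCLCs on day 2 (-1.49 and -1.64) or day 4 (-1.53 and -1.60), and array 2 of BP14A cells on day 2 (-1.36). It ended also with the RNA quality covariate (-1.45, adjusted p = 0.126) and with all probe sets averaged (-0.98). That of Eno3 ended with the covariate (0.73, adjusted p = 0.268), with no filter (adjusted p = 0.0534), and without either array of BP14A on day 2 (1.08 and 1.23), of Ck-PGCLCs on day 2 (1.05 and 1.26) or day 4 (1.22 and 1.09), or array 1 of BP14A on day 4 (0.97).

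**Figure D4:**
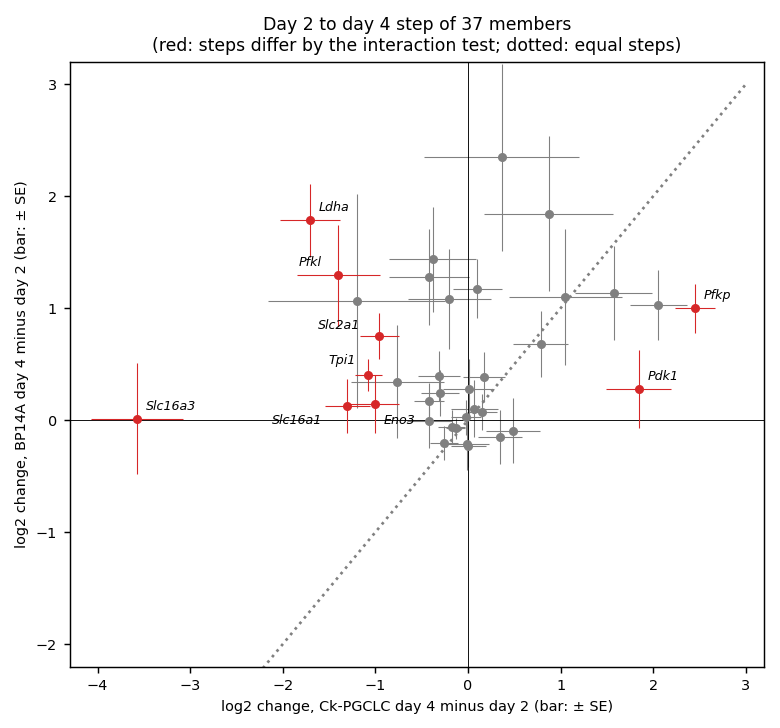
Change from day 2 to day 4 in Ck-PGCLCs (horizontal axis, log2) against the same change in BP14A cells (vertical axis, log2), with a point for each of the 37 members and red for the 9 whose steps differ. Ldha lies left of 0 and above 0, and Slc16a3 lies far left at a height near 0.

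Ldha was lower in BP14A ESCs given doxycycline, which did not pass through EpiLCs, than in those without it. In BP14A ESCs with doxycycline, sorted for stella-ECFP, 4 members rose and 4 fell against untreated BP14A ESCs, with 9.41% of all genes called (5.51% higher and 3.9% lower). Ldha went from 12.31 and 12.36 to 10.23 and 9.83, a change of -2.31 (SE 0.33, adjusted p = 4.1e-05). Pdk1 went from 9.95 and 9.45 to 11.59 and 11.49, a change of 1.84 (SE 0.35, adjusted p = 0.000908). Slc16a3 rose, from 6.28 and 5.45 to 8.51 and 9.09, a change of 2.93 (SE 0.49, adjusted p = 0.000276). No array of the treated cells overlapped with the untreated ones for these genes. Eno3 rose by 2.24 and Hk1 fell by 1.90. Aldoc fell by 2.49 and lost its call without array 1 of the untreated ESCs (-2.34, adjusted p = 0.0593). The sort, the factors, doxycycline itself and the 2 days of culture cannot be told apart in this comparison. The neural markers summed to 8.21 to 8.34 in the treated cells (Sox1 below the filter) and 5.25 to 5.41 in the others (Pax6 below it), and their part was not tested. Gapdh 5′ minus 3′ was -2.14 and -3.13 in the treated cells and -2.82 and -0.76 in the others, and its part was not tested beyond the covariate, under which Ldha, Pdk1, Slc16a3, Eno3 and Hk1 kept their calls.

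Day 6 of the cytokine route held the lowest Ldha, Slc16a3, Pfkl, Tpi1 and Eno3 of the 5 groups of earlier arrays, and also of all 16 groups. Against EpiLCs at 48 h, 3 members rose and 9 fell, with 18.6% of all genes called (9.26% higher and 9.37% lower) and a median member change of -0.29 against -0.03 over all genes. Slc16a3 went from 10.71 and 10.25 to 4.23 and 3.14, a fitted change of -6.80 (SE 0.49, adjusted p = 3.45e-09). The day 6 mean of 3.68 was below the filter, where a level is near the array's background, and with day 6 arrays under the filter set to that level Slc16a3 was at least 81.1-fold lower. Ldha went from 13.17 and 13.02 to 9.35 and 8.82, a change of -4.01 (SE 0.33, adjusted p = 1.48e-08). Pfkl went from 11.66 and 10.65 to 8.04 and 7.07, a change of -3.60 (SE 0.45, adjusted p = 3.9e-06). The groups lay apart for each gene by more than their replicates did. Tpi1 fell by 1.97 and Eno3 by 2.30. Hk1, at 8.64 and 8.38 before and 11.33 and 10.48 after, rose by 2.40 (SE 0.31, adjusted p = 6.12e-06). Pfkp rose by 2.78, but by 0.26 and not called with all probe sets averaged. With the replicate block of both sets, Egln1, the main HIF prolyl hydroxylase, fell as well (-1.10, adjusted p 0.0836 without and 0.0145 with the block).

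In the embryo, Slc16a3, Hk2 and Tpi1 fell from epiblast at E5.5 to PGCs at E9.5, and Ldha did not pass the test. There 3 members rose and 5 fell, with 15.8% of all genes called (8.9% higher and 6.9% lower), and the median member change was -0.30, against 0.00 over all genes. Without array 2 of the epiblast 5 were called in all. Slc16a3 went from 10.84 and 10.16 to 7.34 and 6.31, a change of -3.67 (SE 0.49, adjusted p = 1.09e-05). Hk2 fell by 1.49 (adjusted p = 0.00024) and Tpi1 by 1.10. Ldha read 13.36 and 13.50 in epiblast and 12.69 and 12.74 in PGCs, a change of -0.71 (95% interval -1.39 to -0.03) that was not called (adjusted p = 0.12). Hk1 rose by 1.44 and Pfkl fell by 1.33. The call of Hk1 ended without array 2 of the epiblast (0.91, adjusted p = 0.0552), and that of Pfkl without either epiblast array (-1.08 and -1.58) and without array 2 of the PGCs (-1.01). Pfkp rose by 1.22, which was 0.95 without array 1 of the epiblast and turned to -0.24 with all probe sets averaged. With the replicate block of both sets Aldoc fell too (-1.44, adjusted p 0.0879 without and 0.0106 with the block).

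Between day 6 Ck-PGCLCs and PGCs directly, 2 members were higher and 9 lower in culture, with 7.36% of all genes called (3.9% higher and 3.46% lower). Ldha was lower by 3.63 (SE 0.33, adjusted p = 3.13e-07) and Pfkl by 3.14 (SE 0.45, adjusted p = 7.3e-05). Slc16a3, below the filter on day 6, was at least 6.45-fold lower there (adjusted p = 0.000184). Tpi1 was lower by 1.38 (SE 0.14, adjusted p = 2.03e-06). For all 4 genes both arrays in culture lay below both PGC arrays. Hk1 was higher by 1.28 and lost its call without array 1 of day 6 (0.85), without array 2 of the PGCs (0.97) and with all probe sets averaged (1.19, adjusted p = 0.147). With the block, Egln1 was lower too (-1.20, adjusted p 0.114 without and 0.0183 with it). The PGC arrays carried markers of other cells. The 5 genes for endothelium and blood (Cdh5, Tie1, Hba-x, Hbb-bh1 and Hbb-y) were all above the filter there and summed to 12.56 to 13.82, against 8.61 to 9.45 on day 6 (Hbb-y below the filter) and 6.46 to 6.86 in epiblast (Tie1 and Hbb-y below it). Fibroblast markers (4 of 5 above the filter, Thy1 below) summed to 9.66 to 10.79 in PGCs, 8.40 to 8.81 on day 6 (Col1a1 and Thy1 below) and 7.89 to 8.03 in epiblast (Postn below the filter). Their part in the PGC values was not tested.

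**Figure D5:**
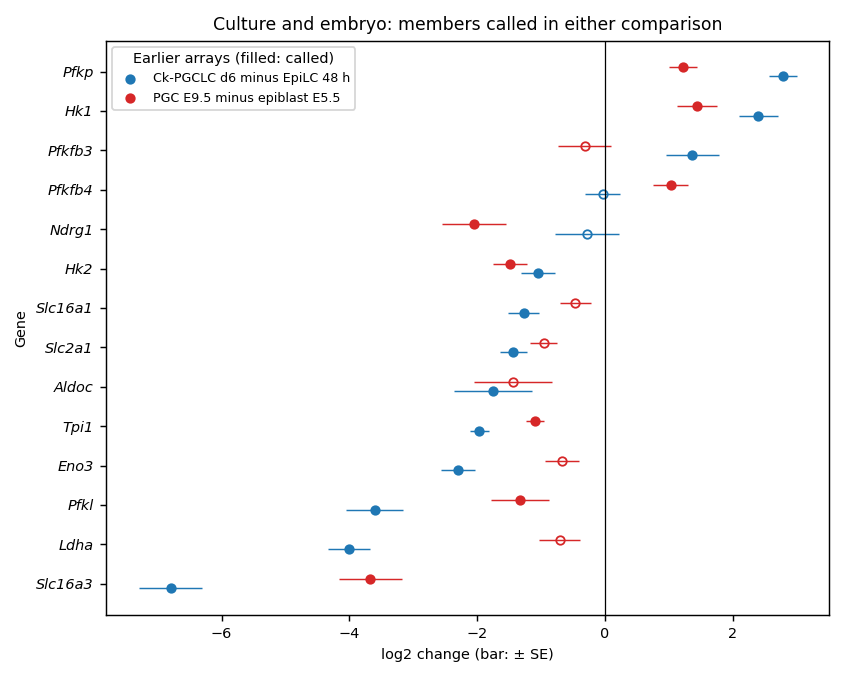
Changes (log2, horizontal axis, bars are SE) of the members called in either comparison, with filled points for calls, from EpiLCs at 48 h to Ck-PGCLCs on day 6 and from epiblast at E5.5 to PGCs at E9.5. The points for Ldha stand at -4.01 and -0.71 and those for Slc16a3 at -6.80 and -3.67, while Hk1 and Pfkp lie right of 0 in both.

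Other genes of the same pathways, from lists chosen with earlier results of these data known, were read in the same fit. Among 13 genes of pyruvate and lactate handling, 3 rose and 0 fell from epiblast to PGCs and likewise from EpiLCs to day 6, in limma (8.9% of all genes rose and 6.9% fell in the first, 9.26% and 9.37% in the second). The same 3 genes were called in both, namely Mpc1, a subunit of the mitochondrial pyruvate carrier (3.34 and 3.07), Pcx, the pyruvate carboxylase (2.74 and 1.59), and Slc16a8, a further lactate transporter, whose means were below the filter in all 4 groups. Pcx also rose by 1.79 and Mpc1 by 1.54 between days 2 and 4 of the cytokine route. In the test of the 2 steps, the step of each was lower with factors (-1.47 and -1.99). Of 9 HIF pathway regulators, Epas1, which encodes HIF2A, rose by 4.26 to 4.87 and Arnt2 fell by 1.53 to 2.24 in the 4 factor sets against the parental control (1 of 9 rose and 1 fell in each set, where 5.65% to 6.63% of all genes rose and 6.43% to 7.25% fell). Epas1 stood at 5.76 in that control and 8.22 in EpiLCs.

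Of 17 further hypoxia-response genes, 4 rose and 2 fell in each factor set against the control, with the same shares over all genes. Car12, a membrane carbonic anhydrase, rose by 4.15 to 4.63, and Cited2, which competes with HIF1A for its coactivators, fell by 2.84 to 3.17. Car12 also rose by 4.72 from epiblast to PGCs, while Ak4, a mitochondrial adenylate kinase, fell by 3.41. Ero1a, an oxidoreductase of the endoplasmic reticulum known before as Ero1l, rose by 1.49 to 1.90 in the 4 factor sets. In the branches off glycolysis, for which the shares over all genes are those of day 6 and PGCs above, Pgd of the pentose phosphate pathway fell by 2.35 on day 6 and by 1.71 in PGCs (1 of 6 genes fell in each and 0 rose). Phgdh, the entry to serine synthesis, fell by 2.59 and 1.65 (2 of 5 genes fell on day 6 and 1 in PGCs, and 0 rose). Pygl, the liver-type glycogen phosphorylase, rose by 2.88 and 3.92 (1 of 6 genes rose on day 6 and 2 in PGCs, and 0 fell). The alternatives were not run for the genes of these lists.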

How the data were processed

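The data were 45101 probe sets on each of 32 Affymetrix Mouse430_2 arrays, 2 in each of 16 groups. The deposited values are log2 signals made by the authors, and the summarisation and normalization software is not given in the sources used here. Per the labels' protocols, cDNA of about 20000 cells was amplified by PCR before labelling, which can favour 3′ ends. Array medians of the deposited values ranged from 4.62 to 4.78, so the arrays were quantile normalized here. Of the probe sets, 34948 had 1 symbol in the platform annotation, 932 had several and 9160 were not listed. The 61 other control probe sets were left out, and 3 for Gapdh were kept. No replicate pair held identical values (0 pairs). The number of arrays limits the precision.

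A model with 16 group means (16 residual degrees of freedom) was fitted over 15498 genes with limma 3.58.1 in R 4.3.3, giving 22 comparisons and 2 tests of a difference between them, with Benjamini-Hochberg adjustment. Genes needed 1 group mean at or above the 40th percentile of all values. The fit was tested on simulated data. Values are named for at most the 5 largest rises and 5 largest falls a comparison and for fixed names, and for at most 2 called genes of each further list. Members, lists and rules were chosen with earlier results of these data known. Alternatives were the deposited values, median centring, all probe sets averaged, no filter or the 60th percentile, trend and robust options, no fold limit, either set of arrays alone, each array left out and a replicate block. A covariate for RNA quality was added after the data were seen. Replicate numbers paired the earlier arrays, where deviations of same-numbered arrays correlated above 0.1 in 10 of 10 pairs of groups (0.243 to 0.522). They did not pair the new ones (25 of 55). The replicate block was fitted for both sets in the same model, so calls it added among the earlier arrays do not rest on their pairing alone.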

Additional observations from a re-analysis of the deposited data

Results flagged for a closer look

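In 9 members the step from day 2 to day 4 differed between BP14A cells and Ck-PGCLCs in a test of the difference itself (limma, Benjamini-Hochberg adjusted over all genes). Higher with factors were the steps of Slc16a3 by 3.59 (adjusted p = 0.0013), Ldha by 3.49 (3.09e-05), Pfkl by 2.69 (0.00638), Slc2a1 by 1.71 (0.000424), Tpi1 by 1.48 (4.67e-05), Slc16a1 by 1.43 (0.00752) and Eno3 by 1.15 (0.0417). Lower with factors were the steps of Pfkp, at -1.45 (0.00267), and Pdk1, at -1.57 (0.0384). These are differences of steps and not of levels. Against Ck-PGCLCs of the same day, BP14A cells differed by 2.07 in Pdk1 and 1.94 in Pfkp on day 2, and by 0.50 and 0.49 on day 4. Ldha differed by -3.16 on day 2 and 0.34 on day 4. Factor cells and Ck-PGCLCs come from different clones, so clone and route cannot be told apart. The RNA quality of the BP14A arrays on day 4 was the lowest of all groups, and with its covariate 7 of the 9 kept their calls, Pdk1 (-1.45) and Eno3 (0.73) being the exceptions. With all probe sets averaged 5 of the 9 kept them, and Pfkl, Pfkp, Slc16a1 and Pdk1 did not.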

How the results depend on the processing

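Of 168 changes (up to the 5 largest each way in a comparison), 82 kept their call under every alternative run on them. All 168 did under the trend and robust options and under the replicate block, and 50 of 167 lost it with all probe sets averaged. In that setting Pfkp from epiblast to PGCs turned from 1.22 to -0.24, through 2 dim probe sets. Leaving out an array ended 119 of 700 calls and the Gapdh covariate 5 of 168. The causes were not tested.

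Counts of called members moved by over 1.5 times as follows. With all probe sets averaged, they went from 3 to 1 for EpiLCs at 48 h against epiblast, from 8 to 4 for BP14A day 4 against EpiLCs, from 11 to 6 for BP14A against the parental control, from 11 to 7 for day 6 Ck-PGCLCs against PGCs, and from 9 to 5 for the difference of the day 4 steps. With no fold limit, they went from 3 to 5 for EpiLCs at 48 h against epiblast, 6 to 10 for Ck-PGCLCs on day 2 and 10 to 16 on day 4 against EpiLCs, 8 to 14 for P14 against the control, 5 to 10 for BP14A against Ck-PGCLCs on day 4, and 8 to 14 for PGCs against epiblast. With the earlier arrays alone, EpiLCs at 48 h against epiblast had 0. With the new arrays alone, BP14A day 4 against day 2 had 5 in place of 2. The difference between the EpiLC steps had 1 in place of 0 under median centring, the 60th percentile, the trend and robust options and the Gapdh covariate.

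The replicate block raised BP14A day 4 against day 2 from 2 to 6 and the difference between the EpiLC steps from 0 to 1 (Pfkfb3). The new arrays share only a number, and the block ended no call.

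With 1 array left out, counts ranged from 7 (without array 2 of BP14A ESCs) to 9 for EpiLCs at 36 h against ESCs, 0 to 4 for EpiLCs at 48 h against epiblast, 5 (without array 1 of BP14A day 2) to 9 for BP14A day 2 against EpiLCs, 0 to 1 for BP14A day 4 against day 2, 2 (without array 1 of Ck-PGCLCs) to 5 for BP14A against Ck-PGCLCs on day 4, 5 (without array 2 of epiblast) to 9 for PGCs against epiblast, and 0 to 2 for the difference of the EpiLC steps.

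On the deposited values, the share of called genes that were higher went from 58.2% to 69.5% for Ck-PGCLCs on day 2 against EpiLCs, from 57.9% to 67.5% for BP14A day 4 against EpiLCs (68.7% with median centring, where 6 members rose and 2 fell), and from 65.6% to 77.4% for BP14A day 4 against day 2. In the first of these the median of all genes moved from -0.04 to 0.09.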
